A study of Drosophila melanogaster with 2 samples.

Results

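Intronic peaks of the zinc finger protein CG6654 that lay close to, but not at, the start of a protein-coding gene were examined in Drosophila melanogaster embryos. They numbered 481 of the 2962 peaks that the authors' irreproducible discovery rate (IDR) analysis kept. The members were chosen by 2 values of that list, the deposited signal value and the position of the summit. The signal value had to be below 388, which leaves out the 296 strongest peaks, and the summit had to lie inside a gene, in no annotated exon, and 501 to 2500 bp from the nearest protein-coding start. Signal and distance to the start are therefore described here and not tested, and other features of position were tested only against regions that meet the same location rule.

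The data came from chromatin immunoprecipitation and sequencing (ChIP-seq), which maps where a protein sits on DNA. There is 1 group, with biological replicates 1 and 3. Each was made from whole embryos, both sexes pooled, at 0 to 12 h of development, of a transgenic line that stably made CG6654 with green fluorescent protein (GFP) at its C terminus, and the complex was pulled down with an antibody against GFP. No untagged or other group was compared, and a control experiment that the labels mention was not analysed here. Every peak is thus an average over stages and cell types, on a tagged protein made from a transgene. Read totals are absent from the peak lists, and sequencing depth is therefore unknown.

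CG6654 has C2H2 zinc fingers, which bind DNA, and an N-terminal zinc finger-associated domain (ZAD) of a kind through which insect zinc finger proteins pair with each other. First introns of fly genes are often long and hold many enhancers, as well as alternative start sites. An intronic peak can lie in an element that serves the host gene, a neighbour or a gene nested in the intron, and a peak list does not tell which. Introns of the fly are richer in A and T than its exons.

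The sequences of 9 members of high signal are given as examples only. A motif match was the reason for printing 5 of them, and 25 of all 481 members had one. Each sequence is the 101 bp centred on the summit, read from the dm6 genome and printed 5′ to 3′. The first 5 were the members of highest signal that matched a motif learned only from the 296 peaks at or above that cut, of which none is a member. They are chr3L:447362-447462 on the minus strand in klar, chrX:13110158-13110258 on the minus strand in Chpf, chr3R:31250807-31250907 on the plus strand in qless, chr2L:16492330-16492430 on the minus strand in Tpr2 and chr3L:9056023-9056123 on the minus strand in Argk1. The capitals mark the 19 bp match, turned so that the motif reads the same way in each.
klar: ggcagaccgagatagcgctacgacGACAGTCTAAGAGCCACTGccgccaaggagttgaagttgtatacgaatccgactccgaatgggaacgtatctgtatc
Chpf: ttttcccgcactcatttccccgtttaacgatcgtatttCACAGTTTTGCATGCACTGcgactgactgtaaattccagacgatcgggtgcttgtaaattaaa
qless: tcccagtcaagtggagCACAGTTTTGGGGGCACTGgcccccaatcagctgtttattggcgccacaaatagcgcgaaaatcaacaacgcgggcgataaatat
Tpr2: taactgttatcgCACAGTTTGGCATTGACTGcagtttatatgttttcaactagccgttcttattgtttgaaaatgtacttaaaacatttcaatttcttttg
Argk1: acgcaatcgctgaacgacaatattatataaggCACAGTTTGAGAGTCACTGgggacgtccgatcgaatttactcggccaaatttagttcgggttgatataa
All 5 matches end in ACTG, and those in Chpf, qless, Tpr2 and Argk1 begin with CACAGTT. The match in klar, with a matrix score of 16.9 against a threshold of 15.3, was the weakest of the 5, and that in Argk1, with a score of 28.7, was the strongest. The other 4 were members of high signal with no match, and here the capitals mark the longest run made only of A and T. They are chrX:7307109-7307209 on the plus strand in CG1677, chrX:4324932-4325032 on the plus strand in norpA, chr2L:8534861-8534961 on the plus strand in CG17834 and chr2L:3302354-3302454 on the plus strand in CG9663.
CG1677: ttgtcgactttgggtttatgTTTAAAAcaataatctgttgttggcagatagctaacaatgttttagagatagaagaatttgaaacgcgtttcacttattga
norpA: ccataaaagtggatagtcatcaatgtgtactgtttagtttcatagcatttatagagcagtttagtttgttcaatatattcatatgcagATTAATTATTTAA
CG17834: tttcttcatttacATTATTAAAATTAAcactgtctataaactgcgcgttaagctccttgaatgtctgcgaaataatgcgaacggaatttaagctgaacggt
CG9663: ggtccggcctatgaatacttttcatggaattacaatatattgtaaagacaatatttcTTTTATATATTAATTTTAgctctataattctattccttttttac
The runs of A and T in capitals are 7 to 18 bp long.

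The signal value, a score of the authors whose scale is not stated, ran over the 481 members from 74.9 to 388, with a median of 123 and quartiles of 95.6 and 181. Their median distance to the nearest protein-coding start was 1179 bp, and 186 of them lay 501 to 1000 bp away, against 64 at 2001 to 2500 bp. The member of highest signal, in CG1677 near brk, had 387.934, and the nearest peak that the cut left out, in CG13502, had 393.145. At the near edge the summit in ush at 501 bp was kept and one in CG18135 at 499 bp was not. At the far edge the summit in Ubr3 at 2500 bp was kept and one in shn at 2505 bp was not. A further 57 intronic peaks met the distance rule with a signal at or above the cut and are not members. The −log10 q-value that the authors give for each region ran only from 3.17 to 3.65 over members, and 366 of 481 were at the highest value.

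Both replicates were searched for each member, with a region counted as shared at a reciprocal overlap of at least 50%. Of the 481 members, 335, or 69.6%, had such a region in both unthresholded replicate lists, against 74.4% of all IDR peaks. The signal value over the 335 members ranged from 12.8 to 521 with a median of 46.6 in replicate 1. In replicate 3 it ranged from 20.1 to 997 with a median of 69.9. Replicate 3 gave the higher value at 286 of the 335 members, or 85.4%, with a median ratio of replicate 3 over replicate 1 of 1.54, while the ratio over all matched IDR peaks was 1.41. The scale of the score may differ between lists, so this ratio is a description of the lists. The share of all matched IDR peaks with the higher value in replicate 3 is not given here. Spearman's coefficient between the replicates was 0.56 over the 335 members, against 0.65 over 2203 matched IDR peaks of all kinds. It is a description across peaks of the same pair of libraries, and the IDR set was itself made from both lists.

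**Figure D1:**
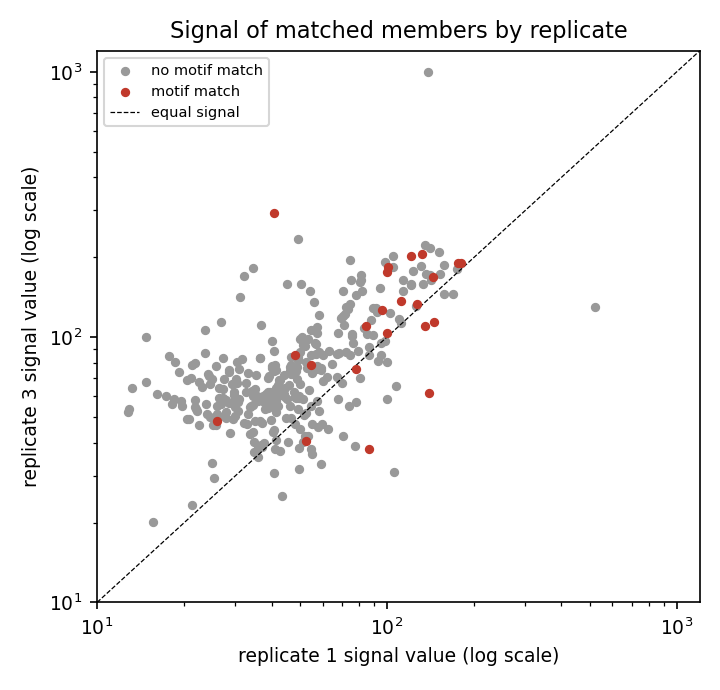
Signal value of the 335 members matched in both replicates, replicate 1 on the x axis and replicate 3 on the y axis, both on log scales with no unit. Each point is a member, red where the summit window matched the motif and grey where it did not, and 286 points lie above the dashed line of equal signal.

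Strong support in both lists was seen for 46.6% of members. This is the share, 224 of 481, that overlapped one of the 2962 regions of highest signal in replicate 1 and also in replicate 3, and over all IDR peaks the share was 52.1%. Replicate 3 carried more of the members, with 377 among its top regions, against 274 in replicate 1. Another 153 were among the top regions of replicate 3 only and 50 of replicate 1 only, and 54 were in neither. The excess in replicate 3 is not read as a trait of members, since these counts are not given here over all IDR peaks. These counts depend on the overlap asked for, since any overlap of 1 bp gave 67.8% and a reciprocal overlap of 80% gave 29.5%, with 70.2% and 31.6% over all IDR peaks. A few members stood far off, and 2 are named here after their values were seen. The member in Mp, a multiplexin collagen, had 521 in replicate 1 and 129 in replicate 3. The second member in klar had 139 in replicate 1 and 997 in replicate 3. Both lay in deposited regions with several summits, so a matched value may belong to another summit.

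The members of highest signal were read in both replicate lists where a match existed. The highest of all, in an intron of CG1677 and 780 bp upstream of the start of brk, had no 50% match in replicate 1 and 226 in replicate 3. Brk, or brinker, is a repressor that keeps targets of the growth factor Dpp silent. The member in klar, which encodes a KASH protein for nuclear positioning and organelle transport, had 180 in replicate 1 and 189 in replicate 3. Replicate 3 was thus the higher list for klar.

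Other leading members were read in both lists as well. The member in norpA, the phospholipase C of the fly's light response, had 135 in replicate 1 and 223 in replicate 3. In Chpf the values were 175 in replicate 1 and 191 in replicate 3, in an intron 2014 bp from the start of Fer3HCH, a gene of the ferritin heavy chain family. In qless, needed to make the side chain of coenzyme Q, they were 132 in replicate 1 and 206 in replicate 3. The start of qless carried an IDR peak of signal 661, higher than the 347 of the member itself. ImpL2, a secreted antagonist of insulin-like peptides, had 152 in replicate 1 and 172 in replicate 3, and it is also a gene of the ecdysone response.

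Other genes among the 20 members of highest signal were CG17834, CG9663, CG13285, CG4496, Tpr2, mub, Mekk1, CHES-1-like, schlank, Rtnl1, brat and edl. Their members had IDR signals of 307 to 354. Tpr2 encodes a co-chaperone, mub a KH-domain RNA-binding protein, Mekk1 a kinase of stress-activated pathways, CHES-1-like a forkhead protein, schlank a ceramide synthase, Rtnl1 a reticulon of the endoplasmic reticulum, brat a translational repressor and edl an antagonist of an ETS activator. Members in CG13285 and Mekk1 had no match in replicate 1, with 220 and 175 in replicate 3. That in Tpr2 was far apart in the lists, with 40.8 in replicate 1 and 294 in replicate 3, in a deposited region of 1639 bp that holds more than 1 summit.

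Few members carried the motif of the strongest peaks, and the share was lower than in peaks deeper in introns. The motif was learned from the 296 IDR peaks with a signal of 388 or more, whose leading word of 8 bases, with both strands counted as 1, was CAGTTTGA, found in 79 of the 296 windows against 4 of 592 flank windows. A matrix of 19 columns grown from it matched 138 of those 296 peaks, or 46.6%, as the peaks it was learned from. Among these 296 were the 57 near-start intronic peaks at or above the cut, of which 28 had a match. Of members, 25 of 481 had a match within 50 bp of the summit, which is 5.2% (95% Wilson interval 3.54 to 7.56%). Over all IDR peaks below the cut the share was 5.55%, so members as a whole were close to that background. In 603 deep intronic peaks below the cut, over 2500 bp from a start, it was 68, or 11.3% (8.99 to 14.1%). The odds ratio of members to deep intronic peaks was 0.43 (exact test, adjusted p = 0.00242). This and all later tests of region classes are two-sided exact tests of Fisher, 34 in number, with p-values adjusted together after Benjamini and Hochberg.

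Against 112 peaks below the cut that lay within 500 bp downstream of a start with no divergent neighbour, where 12 or 10.7% had a match, the odds ratio was 0.46 and the difference did not pass (exact test, adjusted p = 0.18). Of 3458 weak regions of the pooled list that met the same location rule but overlapped no IDR peak, 6 had a match, or 0.174% (0.0795 to 0.378%). These location-matched regions had signals of 19.7 to 74.5, all below the lowest member, and matches went with signal, so this difference is a description with no test. The members' own flank windows, 200 to 300 bp from the summits, held a match in 6 of 962, or 0.624%. All such p-values treat regions as units although they come from the same pair of libraries, and neighbouring members are not independent. The lower share against deep intronic peaks did not pass the exact test with a window of 25 bp (adjusted p = 0.482), with a match threshold exceeded by 5% of flank windows (adjusted p = 0.104) or on regions of replicate 1 alone (adjusted p = 0.0603).

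Matches were concentrated in members of high signal. In 4 bands of members from low to high signal, split at their quartiles, 0.833%, 2.5%, 4.17% and 13.2% had a match. In deep intronic peaks of the same signal bands the shares were 4.69%, 8.18%, 10.1% and 28.1%, above those of members in each band. In peaks just downstream of starts they were 3.85%, 3.57%, 8.33% and 23.5%, on 24 to 34 peaks a band. Signal chose the members, so these are descriptions with no test. Members with a match had a median signal of 225, against 121 in members without one. They were among the top regions of both replicates in 76% of cases, against 45% without a match.

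**Figure D2:**
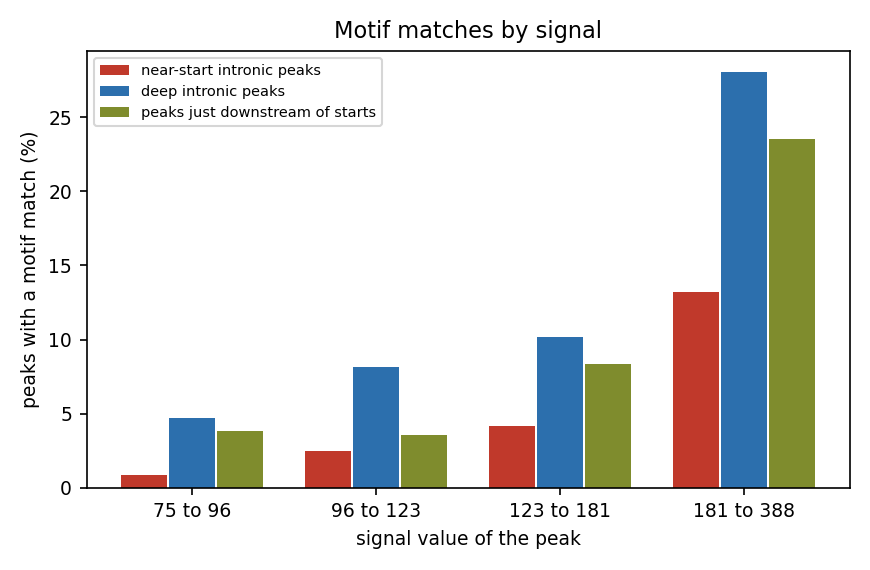
Share of peaks with a motif match within 50 bp of the summit, in percent, by band of signal value, whose limits are the quartiles of the members and the cut. Bars show near-start intronic peaks, deep intronic peaks and peaks just downstream of starts, and in the top band they reach 13.2%, 28.1% and 23.5%.

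The matches sat near the summits, with a median distance of 16 bp between the centre of the match and the summit, and 14 of 25 centres within 20 bp. They ran on the strand of the host gene in 12 of 25 members. The windows with a match were richer in G and C, at a median of 42.6%, against 31.7% in windows without one. Besides the 5 members printed above, genes with a match, named after their values were seen, included nuf, orb2, toc, sdt, vkg and Phf7. Phf7, vkg and Tpr2 held 2 such members each. The members in Phf7 had 140 and 84.7 in replicate 1, and 61.7 and 110 in replicate 3, so their order by signal differed between the lists.

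A dip in GC content at the summit was the common feature of members. The 101 bp at the summit had a median GC content of 32.7%, against 43.6% in the flanks of the same members, and it was lower than the flanks at 384 of 481 members, or 79.8%. Deep intronic peaks were alike in this description, with 32.7% at the summit and 44.1% in flanks, lower at 77.3% of peaks. Peaks just downstream of starts had 37.6% and 43.3%, lower at 63.4%, and location-matched regions had 39.6% and 42.1%, lower at 53.2%. The values of the members ran from 15.8 to 61.4%. Members of the most common width, 384 bp, had a median of 31.7%, and the 177 others had 33.7%. GC content was not tested between classes.

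**Figure D3:**
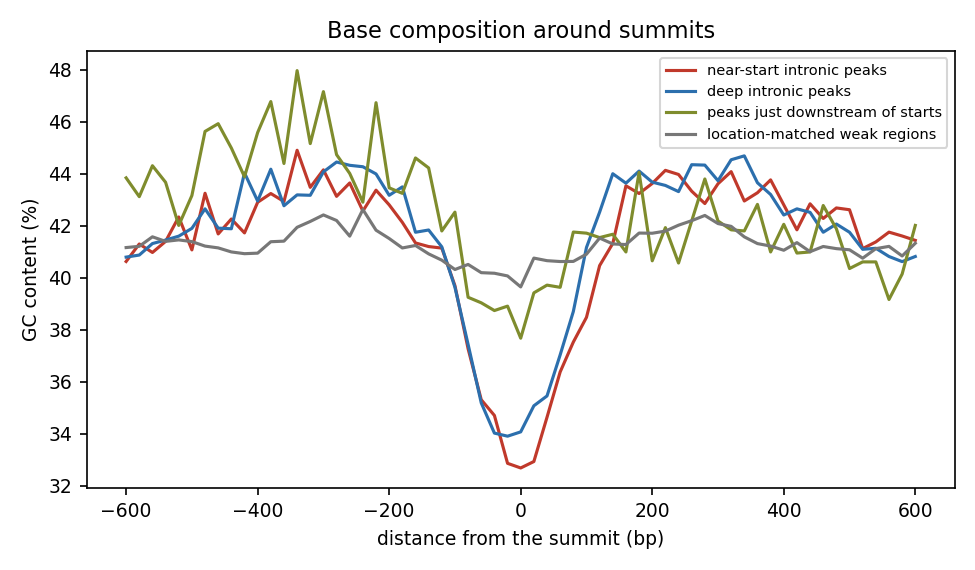
Mean GC content in percent of short windows along the 600 bp on each side of the summit, for near-start intronic peaks, deep intronic peaks, peaks just downstream of starts and location-matched weak regions. The line of the near-start intronic peaks is at 32.7% at the summit and at 44.1% and 43.6% at 300 bp on each side.

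Words made only of A and T were frequent at the summits. A run of 10 or more such bases was in 50.3% of member windows, against 26.9% of their flank windows, 45.3% of deep intronic peaks, 35.7% of peaks just downstream of starts and 34.9% of location-matched regions. The leading word of members, ATTTAAAA with either strand counted, was in 41 member windows, or 8.52%, against 1.98% of flanks, 4.81% of deep intronic peaks and 2.92% of location-matched regions. It was chosen as the leading word on these windows, so the differences from flanks and from the other classes are descriptions. In the 296 strongest peaks it was in 7.09% of windows, against 4.22% of their flanks. A lone run of T bases did not follow this order, since TTTTTTTT, or its reverse strand, was in 6.24% of member windows and 6.65% of their flanks.

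Simple repeats showed the reverse, being scarce at the summit and frequent beside it. The word GAGAGAG, read on both strands and part of the site of the GAGA factor Trl, was in 3 member windows, or 0.624%, against 5.2% of their flank windows. In the other classes it was in 0.829% of deep intronic summits and 3.07% of their flanks, 0.893% and 2.23% around peaks just downstream of starts, and 1.33% and 2.07% around location-matched regions. The CA repeat ACACACAC, on both strands, was in 1.25% of member windows and 6.24% of flanks, against 0.829% and 3.65% in deep intronic peaks, 3.57% and 3.12% just downstream of starts, and 2.72% and 2.95% in location-matched regions. At summits none of these differences between classes passed the exact test, with adjusted p from 0.21 to 1. The flanks were not tested.

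**Figure D4:**
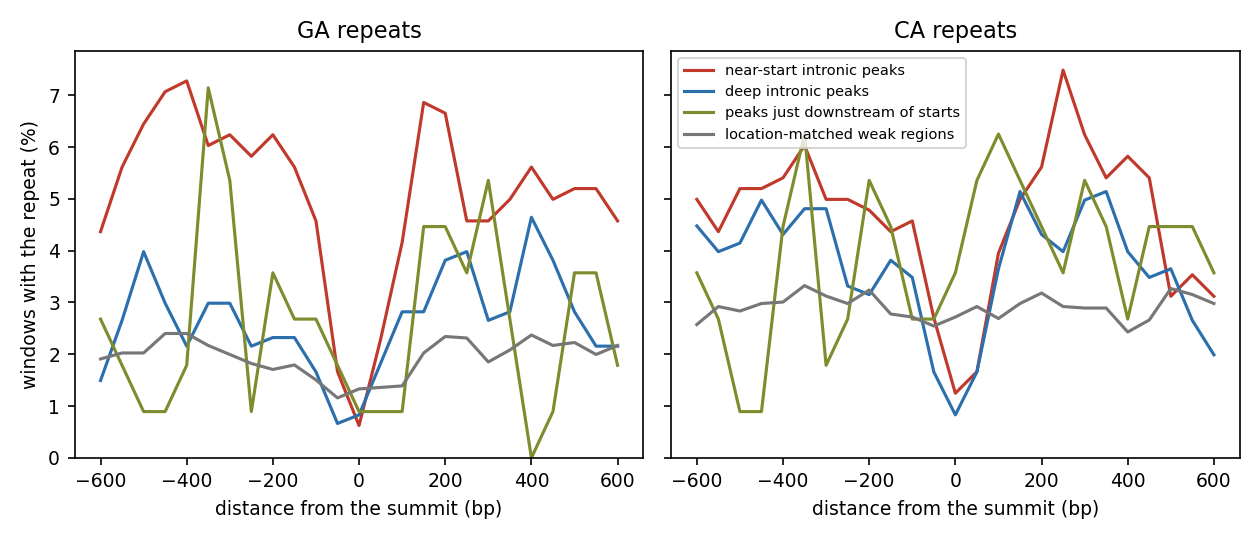
Share of 101 bp windows that hold a GA repeat (left) or a CA repeat (right), in percent, by distance of the window's centre from the summit, for near-start intronic peaks, deep intronic peaks, peaks just downstream of starts and location-matched weak regions. In near-start intronic peaks the GA repeat is in 0.624% of windows at the summit and in 6.86% at 150 bp downstream on the genome's plus strand, and the CA repeat is in 1.25% and 4.99% there.

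Words of other factors were rare at summits and did not set members apart. TATCGATA, the element of the factor Dref, was in 1 member window. CAGGTAG, bound by the early activator Zelda, was in 3 windows, or 0.624%, and TGACTCA, the site of AP-1, in 7, or 1.46%. CGATA, part of the site of the insulator protein BEAF-32, was in 43 windows, or 8.94%, against 17% of peaks just downstream of starts (odds ratio 0.48, exact test, adjusted p = 0.0696). Within 100 bp of the summit the same word was in 19.3% of member windows and 32.1% of those peaks (odds ratio 0.51, exact test, adjusted p = 0.0237). This was the only one of 21 word comparisons to pass at that width, and none of 21 passed at 50 bp, where 1 had an unadjusted p under 0.05. CGATA is contained in TATCGATA, so the pair is not independent.

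Members lay in first introns more often than weak regions placed by the same rule. A first intron of at least 1 transcript held 390 of 481 members, or 81.1% (77.3 to 84.3%), against 2525 of 3458 location-matched regions, or 73% (71.5 to 74.5%). The odds ratio was 1.58 (exact test, adjusted p = 0.00106). These regions overlapped no IDR peak and all had lower signal than any member. This and later differences from them therefore cannot be told apart from signal. Members were closer to starts than those regions, at a median of 1179 bp against 1366 bp, and first introns are more frequent there, so bands of distance were set side by side. In bands from 501 to 1000, to 1500, to 2000 and to 2500 bp, first introns held 84.4%, 83.3%, 74.2% and 76.6% of members, against 79.5%, 73.1%, 71.6% and 64.5% of location-matched regions. At up to 1000 bp the difference did not pass (odds ratio 1.4, exact test, adjusted p = 0.613), nor did it among the 220 members with a signal at or above the IDR median (adjusted p = 0.219). By the canonical transcript of the host, 251 of the 395 members with an intron number there were in intron 1, 81 in intron 2 and 63 in a later one.

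The gene whose start was nearest was usually the host itself. This held for 428 members, or 89% (85.9 to 91.5%), against 82% of location-matched regions (80.7 to 83.2%), with an odds ratio of 1.77 (exact test, adjusted p = 0.000895). It did not pass the exact test among members with a signal at or above the IDR median (adjusted p = 0.0714) or at up to 1000 bp (adjusted p = 0.335). Direction did not differ detectably, with 308 members, or 64%, downstream of the nearest start, against 64.7% of location-matched regions (odds ratio 0.97, exact test, adjusted p = 0.97). The interval on the members' share, 59.6 to 68.2%, includes the value of the regions. Members inside the gene of the nearest start but upstream of that start lie between alternative starts of that gene, as for ImpL2, CHES-1-like and Mad.

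A further IDR peak at the nearest start accompanied some members. Within 500 bp of that start, 81 of 481 members, or 16.8% (13.8 to 20.4%), had another IDR summit, against 10.8% of location-matched regions (9.85 to 11.9%), an odds ratio of 1.66 (exact test, adjusted p = 0.00166). With members and start peaks taken from replicate 1 alone, and location-matched regions still from the pooled list, the shares were 13.1% and 10.1%. The difference did not pass (odds ratio 1.34, exact test, adjusted p = 0.214), nor did it at up to 1000 bp from the start (adjusted p = 0.613). Members with such a start peak had a median signal of 148, against 120 in those without. The regions were chosen to overlap no IDR peak and had lower signal, so the higher share in members cannot be told apart from that choice. Examples were Hsp83, the fly's Hsp90, whose member had 206 beside a start peak of 278, and Trl, where these were 216 and 200. Another was rdx, an adaptor for the degradation of Ci, with a member of 95.6 beside a start peak of 210.

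The X chromosome held more of the members than of the weak regions. Of members 128, or 26.6% (22.9 to 30.7%), were on X, against 613, or 17.7% (16.5 to 19%), of location-matched regions, an odds ratio of 1.68 (exact test, adjusted p = 0.000115). Of the intronic bases that meet the location rule 20% were on X, where members had a density of 49.8 per Mb of such bases, against 30.1 to 36.9 per Mb on the 4 large autosomal arms. The share on X was 27.2% among deep intronic peaks, 23.2% among peaks just downstream of starts and 19.8% over all IDR peaks, so a high share on X was not seen in members only. Without regions in CG1677, the gene with most members, it was 25.2%, against 17.5% of location-matched regions (odds ratio 1.59, adjusted p = 0.000915, exact test). At up to 1000 bp from the start it was 23.1%, against 18.1%, and did not pass (adjusted p = 0.613, exact test). No other arm passed, 2L coming nearest with 14.3% against 18.9% (adjusted p = 0.0691, exact test). Embryos of both sexes were pooled, and the number of X copies per cell was not measured.

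**Figure D5:**
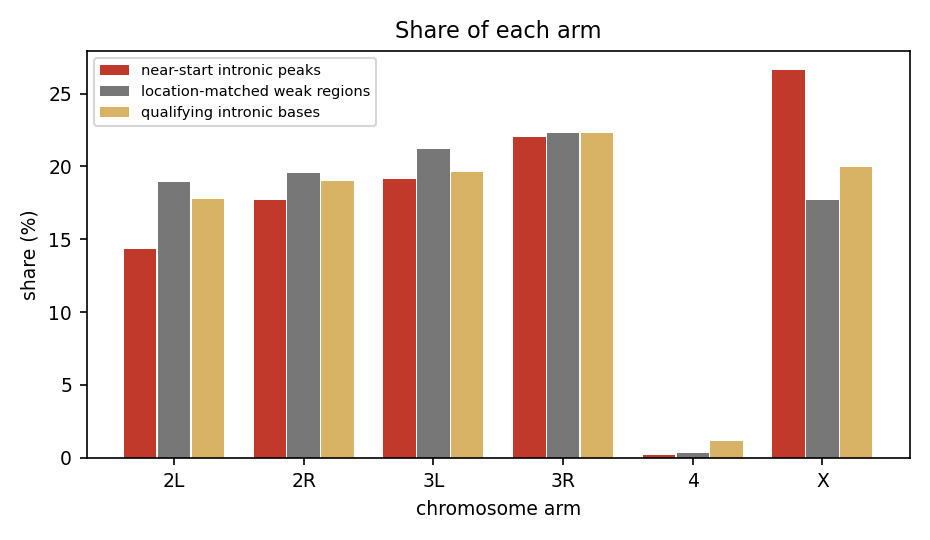
Share in percent of near-start intronic peaks, of location-matched weak regions and of all intronic bases that meet the location rule, by chromosome arm. On X the bars are at 26.6%, 17.7% and 20%.

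The members fell in 411 protein-coding genes, of which 339 held 1 member, 56 held 2, 13 held 3, and 3 held more. CG1677 held 9, the strongest of them in an intron of 73902 bp that also encloses brk. The 9 include members in first introns of Dok and CBP, genes nested in CG1677. CG1677 spans chrX:7281089-7405797 and contained 20 IDR peaks in all, of which 5 reached the cut. Members lay 573, 780 and 1989 bp upstream of the brk start, with signals of 195, 388 and 119. The member at 573 bp, whose region overlaps that of the member at 780 bp, had 70.0 in replicate 1 and no match in replicate 3. That at 1989 bp had 70.6 in replicate 1 and 42.3 in replicate 3, so replicate 1 was the higher list for it. The strongest peak within CG1677, of signal 1686, was 30280 bp downstream of the brk start and is no member.

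Tpr2 and CG42258 held 5 members each, and the genes with 3 included several large regulators. In Tpr2 the IDR signals ran from 84.9 to 329, with 2 of the 5 matching the motif, and in CG42258 from 79.5 to 209, with none. Genes with 3 members were CG43658, CHES-1-like, HmgD, HmgZ, NFAT, Tlk, Wwox, hiw, pum, sdt, shep, tou and ush. HmgD and HmgZ, both HMG-box proteins of chromatin, overlap and share members, so they are not separate cases. CHES-1-like had the highest trio, from 249 to 315. Tlk is the tousled-like kinase, hiw a ubiquitin ligase that limits synaptic growth, pum the Pumilio translational repressor, sdt the Stardust protein of apical polarity, tou a chromatin protein, and ush a cofactor of GATA factors. Genes with a member were long, with a median length of 16574 bp, against 3496 bp for all genes with a qualifying intronic base.

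Lists of genes by function were read against the share of all protein-coding genes with a qualifying intronic base that held a member, 411 of 9141 or 4.5%. Genes with a member had a median of 4217 qualifying bases, against 419 for all qualifying genes, and the share of a list cannot be told apart from the length of its introns. Counts are therefore given with the members per Mb of qualifying intron, which were 37.6 over all genes. No list was tested. Developmental transcription factors had a member in 7 of 73 genes, at 39.7 per Mb, close to the value over all genes. The examples are shn, a zinc finger protein that acts with Mad, with 249, zfh1 with 199, the Hox gene Abd-B with 173 and ush with 170.

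In signalling, the TGF-beta and BMP list had members in 4 of 18 genes, at 97.3 per Mb. Mad, the effector of Dpp signalling, had 121 in replicate 1 and 158 in replicate 3, and shn had 80.5 in replicate 1 and 162 in replicate 3. The stronger member in the receptor gene wit, nearest to the start of CG32259, had no match in replicate 1 and 104 in replicate 3, and Dad, the inhibitory Smad, had 45.0 in replicate 3 only. The other 14 genes of the list held none. Mad and shn were above the medians of matched members in both replicates, and Dad was below that of replicate 3. The receptor tyrosine kinase list had 8 of 41 genes, at 75.2 per Mb. Among them InR, the insulin receptor, had 217, aop, an ETS repressor, 188, the adaptor drk 181 and S, which carries an EGF ligand through the secretory pathway, 168.

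The other pathway lists held 1 to 3 genes with a member each. Hedgehog genes were 3 of 11, at 85.0 per Mb, namely the co-receptor boi with 130, ttv, which makes heparan sulfate, with 117, and rdx with 95.6. The member in ttv also lay inside LamC, whose start was the nearest. In the JAK-STAT list they were 2 of 10, at 58.2 per Mb, Stat92E, its transcription factor, with 225, and the phosphatase Ptp61F with 96.8. Hippo genes were 2 of 17, at 59.0 per Mb, kibra with 109 and crb with 97.5. Notch had 1 of 12, the ubiquitin ligase neur with 149, and Wnt had 1 of 24, the casein kinase gish with 111, at 26.1 and 12.2 per Mb. Each of these densities rests on 1 to 3 members.

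Lists of cell structure and the nervous system followed. Cytoskeleton and small GTPase genes had members in 12 of 62, at 54.1 per Mb, with Moe, or moesin, at 289, the myosin jar at 240, the cofilin tsr at 203 and Msp300 at 203. Axon guidance and adhesion genes had 7 of 63, at 23.3 per Mb, led by kirre, of myoblast fusion, with 300, Ten-a with 150, the netrin receptor fra with 140 and the integrin mew with 125. Ion channel and synapse genes had 4 of 61, at 17.5 per Mb, the potassium channels KCNQ with 294 and eag with 133, Syn, or synapsin, with 129 and the glutamate receptor Nmdar1 with 83.1. The member in KCNQ was nearest to the start of mlt, that in Syn to the start of Timp, and that in Nmdar1 also lay inside Itpr, whose start was the nearest, so the host need not be the gene whose start is closest. The same held for fra and mew, whose members were nearest to the starts of CG33752 and CG32639. In other lists, the member in drk was nearest to the start of mars and that in Kdm4B to the start of seq.

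Regulators of RNA and chromatin made up the rest. RNA-binding genes had members in 10 of 57, at 51.8 per Mb, with mub at 317, brat at 309, orb2, a CPEB protein, at 274 and Rbp9 at 261. Chromatin regulators had 8 of 66 with the highest density among lists of more than 1 hosting gene, 135 per Mb. There Trl had 216, ph-p, of the Polycomb repressive complex, 181, the demethylase Kdm4B 181 and the histone kinase JIL-1 175. Both members in Trl were lower in replicate 1, at 56.1 and 27.2, than in replicate 3, at 136 and 83.4. Ecdysone response genes had 8 of 27, at 60.1 per Mb, led by ImpL2 with 336, the nuclear receptors Hr3 with 194 and Hr4 with 130, and Eip63E with 117. Of heat shock and chaperone genes 1 of 16, Hsp83, held one, and of proteasome subunits none of 20 did, on 5545 and 2650 qualifying bases.

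Members also occurred in small groups along the chromosome. With gaps of at most 2000 bp, they formed 429 groups, of which 385 were single members, and the largest held 5. Another IDR summit lay within 300 bp of 45 members, so their windows and flanks can overlap. A start of any gene, non-coding ones included, lay within 500 bp of 8 members, and 4 members lay only in non-coding genes. Inside 2 or more genes lay 42 members, for which the lists do not tell the host.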

How the data were processed

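Whole-embryo ChIP-seq lists of 2 biological replicates were used. Per the list of derived data deposited with each library, the authors called regions against a control in each replicate and on pooled reads, without a threshold, and derived the IDR set from these lists. No source used here gives the aligner, the caller, any version or the IDR threshold. The deposited signal value is a score of unstated scale, the authors also deposited a −log10 q-value, and the deposited offset gave the summit. Each unthresholded list holds 30000 regions. Only dm6 lists were used, with the genome and Ensembl release 115 on the same coordinates, transposable elements left out (18277 genes, 13968 protein-coding). Lists on dm3 were not used.

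The members, gene lists and tests were chosen with earlier results of these data known. The matrix was trained on the 296 peaks at or above the cut and scanned within 50 bp of summits, with the score exceeded by 1% of their flank windows as threshold. Flank windows lay 200 to 300 bp from summits. Shares were compared by two-sided Fisher's exact tests, Benjamini-Hochberg adjusted over 34 tests, in Python 3.11.15 with scipy 1.17.1 and numpy 2.4.6, and drawn with matplotlib 3.10.9. Deep intronic peaks and peaks just downstream of starts were IDR peaks below the same cut. Intervals are 95% Wilson intervals and cover counting error over regions only. Whether the replicates were separate collections of embryos beyond their labels is not known. The motif scan and its test were run on simulated windows with sites planted from the learned matrix itself. That run checks the code and not the shares reported here. Named genes are hosts of the 20 members of highest signal, genes with 3 or more members, up to 4 hosts per list by signal, and members at the edges of the rule. Of these, 1 is not reported here. Of the names in the 16 lists, 30 were not matched. Alternatives changed the motif window and threshold, the signal floor, the annotation, the overlap, the word window, the start window and the replicate used.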

Additional observations from a re-analysis of the deposited data

How the results depend on the processing

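Of 87 alternative values, 72 kept their side of the threshold or stayed near the reported value. These include results that passed in neither setting, for which a change of direction was not counted. The odds ratio for lying downstream of the nearest start, 0.97, became 1.16 at up to 1000 bp and 1.005 without CG1677, and passed in none of these. The lower motif share against deep intronic peaks (odds ratio 0.43) no longer passed at 0.70 with a 25 bp window and at 0.64 with a match threshold exceeded by 5% of flank windows. The top regions of replicate 1 alone, and then of replicate 3 alone, gave odds ratios of 0.54 and 0.44, for a peak at the nearest start 1.34 and 1.91, for first introns 1.45 and 1.46, for the host's own start 1.5 and 1.77, and for arm X 1.69 and 1.51. In the same order they gave 420 and 465 members in 362 and 404 host genes. In both runs the location-matched regions still came from the pooled list and the motif matrix from the IDR peaks. Neither run was therefore free of the other replicate. On replicate 1 alone the motif and start peak results did not pass. With signals at or above the IDR median, 220 members in 204 genes remained, and first introns (1.4) and the host's own start (1.71) did not pass. Of listed words 1 passed at 100 bp. Overlap with top regions of both replicates was 67.8% at 1 bp and 29.5% at 80%. The selections for arm X, the split by distance and the removal of CG1677 were chosen after seeing the data. At up to 1000 bp first introns (1.4), start peaks (1.42), the host's own start (1.77) and arm X (1.36) did not pass, on 186 members; over 1000 bp all 4 did. The cause of these changes was not tested, and some of these settings also left fewer members. No paired analysis was possible because the samples form 1 group.

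Depth is unknown, no control list was used, and the comparison regions had lower signal by construction.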
